A study of Mus musculus with 9 samples.

Results

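The BCL2 family decides whether a stressed cell lives, and the RNAs of 10 of its genes were followed in an RNA immunoprecipitation sequencing (RIP-seq) experiment on phosphorylated UPF1 (p-UPF1) in mouse B cells. The genes were chosen by their NCBI Gene numbers among the 27179 genes of the count table. They were 3 pro-survival genes (Bcl2, Bcl2l1, Mcl1) and 7 pro-death genes, of which Bax and Bak1 form the mitochondrial pore and Bcl2l11, Bid, Bad, Bbc3 and Bmf belong to the BH3-only class. All 10 passed the filter on low counts. All libraries came from Wild type mouse spleen, from cells left after CD43+ cells were depleted, and all of the cells were activated for 72 h. The labels give CD40L at 5 ug/mL, anti-IgM antibody at 10 ug/mL and IL-4 at 20 ng/mL, whereas the methods of the study list anti-CD40 antibody and no CD40L. The Input libraries held RNA of the lysate. The IgG libraries held what normal rabbit IgG on beads brought down, and the p-UPF1 libraries what a p-UPF1 antibody brought down. Each group had 3 libraries, called A, B and C here after the letters of their columns. The methods describe the input as a part of the cell lysate, whose rest was incubated with either antibody. Whether libraries of a letter share a lysate is not stated. The statistics section of the study calls the points of its graphs biological replicates in general. For these libraries no source used here names separate mice or cultures, so the P values measure the spread between these samples, which may be technical.

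UPF1 is an RNA helicase of nonsense-mediated mRNA decay (NMD), and it is phosphorylated on RNAs to which decay factors are being recruited. BCL2 family proteins meet at the outer mitochondrial membrane. Pro-survival members hold the pore-forming members and their activators in check, and BH3-only members relieve that hold or activate the pore directly, after which cytochrome c leaves the mitochondrion and caspases are activated. In B cells the balance of these proteins sets how long resting, activated and autoreactive cells survive: Bcl2l11 (BIM) removes autoreactive B cells, Mcl1 is needed by activated and germinal centre B cells, and BCL2 is the oncogene of follicular lymphoma.

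The feature that ties the family together is the BH3 helix, through which the members bind each other. The stretch that encodes it is shown for all 10 genes because it is what makes them a family, whatever happened to their RNAs. Each stretch lies within 1 coding exon. Each line below is read 5′ to 3′ on the coding strand from the RefSeq transcript on GRCm38.p6. The capitals mark the codons of the conserved leucine and the conserved aspartate.
Bcl2, chr1:106712578-106712607, minus strand: ctgaccCTCcgccgggctgggGATgacttc
Bcl2l1, chr2:152829700-152829729, minus strand: caagcgCTGagagaggcaggcGATgagttt
Mcl1, chr3:95659430-95659459, plus strand: gagaccCTGcggcgcgtgggcGACggcgtg
Bax, chr7:45466000-45466029, minus strand: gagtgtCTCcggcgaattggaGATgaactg
Bak1, chr17:27022534-27022563, minus strand: cggcagCTTgctctcatcggaGATgatatt
Bcl2l11, chr2:128147144-128147173, plus strand: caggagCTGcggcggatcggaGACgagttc
Bid, chr6:120897292-120897321, minus strand: agacatCTCgcccaaataggcGATgagatg
Bad, chr19:6950786-6950815, plus strand: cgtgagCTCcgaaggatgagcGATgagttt
Bbc3, chr7:16313767-16313796, plus strand: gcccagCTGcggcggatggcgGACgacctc
Bmf, chr2:118545103-118545132, minus strand: agaaagCTTcagtgtattgcaGACcagttc
The stretches were found in the translated coding sequence as leucine, any pair of residues, a residue among isoleucine, valine, alanine and methionine, a residue among glycine, alanine and serine, aspartate, and a residue among aspartate, glutamate, glycine and glutamine. Each member held 1 match, and 431 of 21000 RefSeq coding genes (2.05%) held at least 1. The residues allowed at each place take in those of all 10 members. Their matches are therefore no finding, and the 2.05% says only how common the pattern is. A match is a description of the letters and shows nothing of binding.

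Total counts were 19873687 to 24945286 in the Input, 17372510 to 18550508 in the IgG libraries, and 23251890 to 24802119 in those of p-UPF1. Pearson's r of log2 CPM (counts scaled to the size of the library) between libraries of a group was 0.9962 to 0.9965 in the Input, 0.982 to 0.986 in the IgG and 0.996 in the p-UPF1 group, so the IgG libraries varied most. The 6 B cell markers Cd79a, Cd79b, Ms4a1, Pax5, Cd22 and Blk were each over 10 CPM in the Input, with a summed level of 2608 to 2631 CPM there, 1831 to 1887 CPM in IgG and 1704 to 1771 CPM in p-UPF1. Of the 7 T cell markers, Lck and Thy1 were over 10 CPM, while Cd3e, Cd3d, Cd3g, Cd4 and Cd8a were each at 0.365 CPM or lower in every library. The summed T cell level was 127 to 133.6 CPM in the Input, 105.3 to 114.3 CPM in IgG and 78.05 to 84.84 CPM in p-UPF1. The 6 myeloid markers summed to at most 0.852 CPM and the 3 NK cell markers, with Ncr1 at 0, to at most 0.807 CPM. The 3 plasma cell markers summed to 21.8 to 25.2 CPM in the Input, 23.9 to 28.3 CPM in IgG and, lowest, 18.8 to 20.1 CPM in p-UPF1, although Sdc1 among them was higher in p-UPF1 (Log2FC 1.27 over input and 1.996 over IgG). Of the 4 erythroid markers, 3 were in the table and their sum was at most 0.0531 CPM, with Hba-a1 and Hbb-bs at 0. The summed B cell and T cell levels were thus lower in both precipitates than in the Input, but the B cell markers did not move together. Over input, Cd79a, Cd79b and Ms4a1 were lower in p-UPF1 (Log2FC -3.04, -1.08 and -0.73) and Pax5, Cd22 and Blk were higher (1.65, 0.95 and 0.21). Over IgG, Cd79a, Cd79b and Pax5 were lower (-2.10, -0.42 and -0.42) and Ms4a1, Cd22 and Blk were higher (0.21, 1.04 and 0.24). Pax5 was higher still in IgG, with a Log2FC of 2.07 for IgG over input. The part of these markers in the results below was not tested. In bulk libraries such as these, a level averages over all cells, so fewer cells with an RNA and less RNA per cell cannot be told apart. The 3 groups were fractions of the same kind of lysate, not kinds of cells.

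Of the 10 members, 6 were higher in p-UPF1 than in IgG libraries, 1 was lower and 3 did not pass the test (edgeR, adjusted P under 0.05). Many RNAs differ in this comparison, since 40.4% of the 13129 genes tested were higher and 42.2% were lower. Counts were scaled to a common centre, and no source used here names an added control RNA or the RNA yield. Higher and lower here thus mean relative to the other RNAs of a library, not the amount of RNA recovered. Against the Input, 7 members were higher and 2 were lower in p-UPF1, beside 40.8% of all genes higher and 42.6% lower. The median log2 fold change (Log2FC) of the 10 was 0.76 over IgG and 0.94 over input, where the median of all genes tested was -0.033 and -0.030. The 2 comparisons share the p-UPF1 libraries. The split ran through the pro-death side: all 3 pro-survival RNAs and 3 of 5 BH3-only RNAs were higher over IgG, and neither pore-forming RNA was.

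All 3 pro-survival RNAs were higher in p-UPF1 than in both other groups, Mcl1 and Bcl2 by more than 2-fold and Bcl2l1 by little. Mcl1 encodes a short-lived survival protein and had the highest mean CPM of the members in every group, although Bcl2l11 was above it in IgG library C. It stood at 431, 434 and 436 CPM in the Input libraries A, B and C, at 433, 446 and 446 CPM in IgG and at 1130, 1195 and 1172 CPM in p-UPF1. All 3 p-UPF1 libraries lay far above the other 6, which overlapped between Input and IgG. The Log2FC of Mcl1 was 1.40 (SE 0.036, edgeR adjusted P = 1.67e-15) over IgG and 1.43 (adjusted P = 1.05e-15) over input.

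Bcl2 encodes the founding survival protein of the family. It stood at 97.6, 103.6 and 97.7 CPM in the Input, at 93.0, 109.1 and 110.7 CPM in IgG and at 240.3, 252.1 and 259.8 CPM in p-UPF1. The p-UPF1 libraries again lay apart from the rest, while Input and IgG overlapped. The Log2FC was 1.27 (SE 0.058, edgeR adjusted P = 3.20e-12) over IgG and 1.33 (adjusted P = 1.38e-12) over input.

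Bcl2l1, the gene of BCL-XL, differed in the same direction but by a small amount. It stood at 292.0, 304.9 and 301.5 CPM in the Input, at 259.2, 284.9 and 278.5 CPM in IgG and at 314.5, 339.5 and 324.3 CPM in p-UPF1. The groups did not overlap, but the lowest p-UPF1 library was only a little above the highest Input library. The Log2FC was 0.25 (SE 0.044, edgeR adjusted P = 7.01e-05) over IgG and 0.12 (SE 0.044, adjusted P = 0.0170) over input. The second call was lost in 5 of 21 alternative settings, with an adjusted P of 0.206 at the highest (upper-quartile factors).

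Neither pore-forming RNA was higher in p-UPF1 than in IgG. Bax, whose protein opens the mitochondrial outer membrane, was the only member lower in p-UPF1 than in both other groups. It stood at 163.4, 169.0 and 166.8 CPM in the Input, at 153.1, 142.0 and 141.4 CPM in IgG and at 78.5, 70.3 and 73.5 CPM in p-UPF1. Every p-UPF1 library lay far below every library of the other groups. The Log2FC was -0.97 (SE 0.049, edgeR adjusted P = 1.15e-11) over IgG, a 1.96-fold lower level, and -1.17 (adjusted P = 8.16e-13) over input.

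Bak1, whose protein is the other pore former, was lower in both precipitates than in the lysate. It stood at 113.5, 114.4 and 112.8 CPM in the Input, at 53.6, 60.7 and 61.2 CPM in IgG and at 62.3, 64.8 and 59.9 CPM in p-UPF1. The precipitates overlapped with each other and neither reached the Input. The Log2FC was -0.87 (SE 0.053, edgeR adjusted P = 1.25e-10) for p-UPF1 over input and 0.091 (SE 0.055, adjusted P = 0.140) for p-UPF1 over IgG, a difference whose sign turned to -0.071 when library size alone scaled the counts and which was called (0.14, adjusted P = 0.0402) when no low-count filter was used.

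Among the BH3-only RNAs, Bid had by far the largest difference. Its protein is cut by caspase-8 and carries the death receptor signal to the mitochondrion. Bid stood at 75.8, 78.1 and 77.4 CPM in the Input, at 66.2, 70.9 and 62.8 CPM in IgG and at 554, 578 and 544 CPM in p-UPF1. The counts behind these values were 1520 to 1870 in the Input, 1224 to 1390 in IgG libraries, and 11996 to 13150 after p-UPF1 precipitation. No library of another group came near the p-UPF1 libraries. The level was 8.38-fold higher over IgG (Log2FC 3.07, SE 0.049, edgeR adjusted P = 9.17e-18) and 7.25-fold higher over input (Log2FC 2.86, adjusted P = 9.28e-18). Of the 13129 genes tested, Bid ranked 114 from the top over IgG and 149 over input.

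Bbc3, the gene of PUMA, a killer induced by p53 and by FOXO3, came next. It stood at 87.7, 88.1 and 89.0 CPM in the Input, at 95.9, 83.9 and 97.3 CPM in IgG and at 330.2, 327.9 and 322.3 CPM in p-UPF1. The p-UPF1 libraries differed from each other by little and lay above all others. The Log2FC was 1.82 (SE 0.050, edgeR adjusted P = 3.96e-15) over IgG and 1.89 (adjusted P = 1.96e-15) over input.

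Bmf, whose protein senses loss of anchorage and cytoskeletal damage, was far less abundant and differed by a similar factor. It stood at 15.005, 17.2 and 17.0 CPM in the Input, at 19.2, 17.7 and 17.0 CPM in IgG and at 59.4, 59.0 and 57.8 CPM in p-UPF1. Input and IgG overlapped, and p-UPF1 lay above both. The Log2FC was 1.71 (SE 0.068, edgeR adjusted P = 4.26e-13) over IgG and 1.85 (adjusted P = 1.34e-13) over input.

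Bcl2l11, the gene of BIM, was higher in both precipitates than in the lysate and was the least stable member in IgG. It stood at 244.6, 253.8 and 260.1 CPM in the Input, at 327, 414 and 458 CPM in IgG and at 366, 371 and 377 CPM in p-UPF1. The p-UPF1 libraries fell inside the range of the IgG libraries. The Log2FC over input was 0.56 (SE 0.082, edgeR adjusted P = 9.58e-06) for p-UPF1 and 0.66 (SE 0.082, adjusted P = 5.61e-06) for IgG. Between the precipitates the Log2FC was -0.11 (SE 0.081, adjusted P = 0.234), and that value moved with the IgG libraries and the scaling: it was -0.23 with adjusted P = 4.48e-05 without IgG library A and 0.00335 with adjusted P = 0.968 without IgG library C. Bcl2l11 was also called lower under library size alone (-0.27, adjusted P = 0.00415), upper-quartile factors (-0.24, adjusted P = 0.00823) and TMM with an input reference (-0.19, adjusted P = 0.0361).

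Bad, whose protein is kept inactive by survival kinases through 14-3-3 proteins, was the member with the fewest counts in p-UPF1, 334 to 368 per library. It stood at 18.6, 16.6 and 17.7 CPM in the Input, at 14.9, 11.99 and 16.5 CPM in IgG and at 15.5, 15.1 and 15.3 CPM in p-UPF1. The p-UPF1 libraries lay within the IgG range and below the Input. Neither difference passed the test, with a Log2FC of 0.080 (SE 0.104, edgeR adjusted P = 0.485) over IgG and -0.21 (SE 0.101, adjusted P = 0.0711) over input. The value over IgG was -0.082 with library size alone, and that over input passed in 6 of 21 alternative settings.

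**Figure D1:**
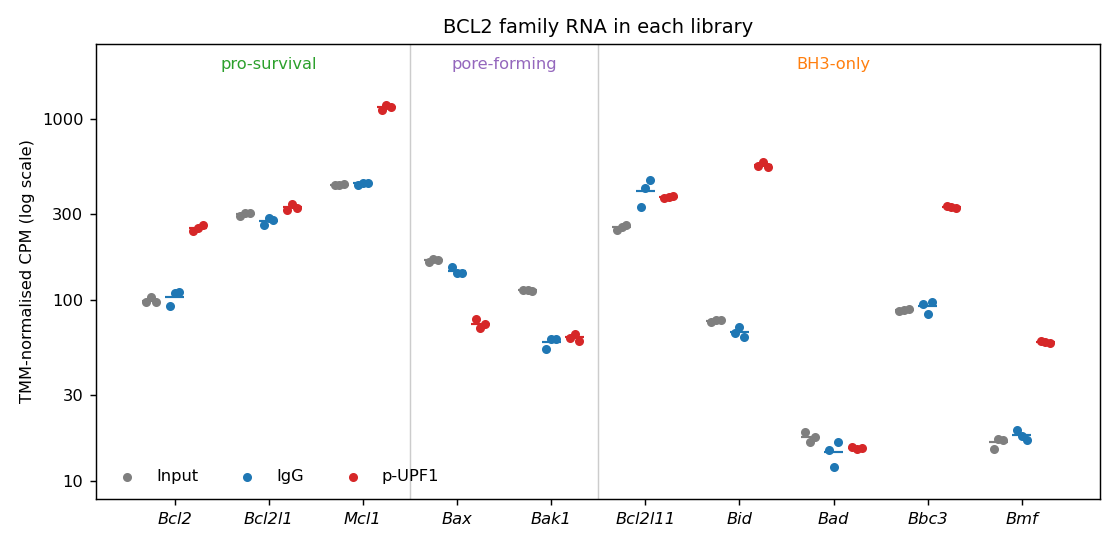
TMM-normalised CPM (log axis) of the 10 members in each library. Points are single libraries (3 each of Input, grey; IgG, blue; p-UPF1, red) and bars are group means. Bid, Bbc3, Bmf, Mcl1, Bcl2 and, by little, Bcl2l1 have all p-UPF1 points above the other 6, and Bax has them below.

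The methods of the study count an RNA as bound by p-UPF1 when its Log2FC reaches 1 against IgG and 2 against the Input, both at an adjusted P under 0.05. Of all genes tested, 820 (6.25%) met it, and of the 10 members only Bid did. Bbc3, Bmf, Mcl1 and Bcl2 passed the part on IgG and stayed under 2 over input, Bbc3 at 1.89 and Bmf at 1.85. Bbc3 met the criterion when an IgG library was the reference of the scaling (2.02 over input) and when no low-count filter was used (2.02). Among 8991 genes of at least 10 CPM on average, the 3 whose log2 CPM pattern over the 9 libraries lay nearest to that of Bid were Rab43, Slc1a4 and Opa3, at Euclidean distances of 0.188, 0.217 and 0.224. Their Log2FC over IgG was 2.997, 3.043 and 2.995.

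**Figure D2:**
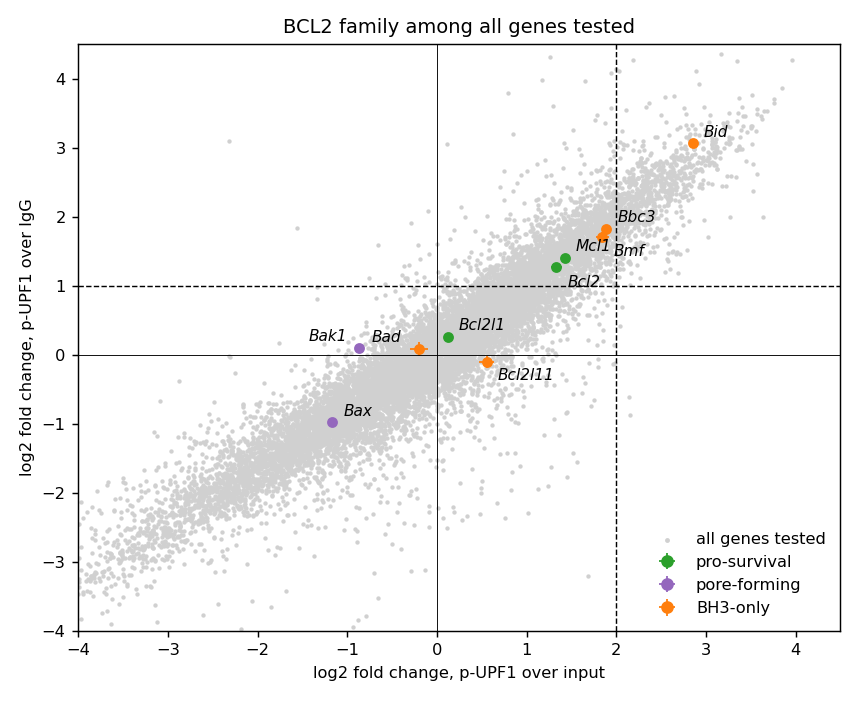
Log2FC of p-UPF1 over IgG (vertical) against p-UPF1 over input (horizontal) for all genes tested (grey) and for the members by class (coloured, bars are ± SE). The dashed lines mark the criterion of 1 over IgG and 2 over input, and 89 of the 13129 genes lie outside the axes. Bid is the only member in the upper right field, and Bax lies lowest on both axes.

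The IgG libraries measured what the beads and a non-specific antibody recovered from the same kind of lysate. Against the Input, 1 member was higher in IgG (Bcl2l11), 5 were lower (Bcl2l1, Bax, Bak1, Bid, Bad) and 4 did not pass the test, beside 18.2% of all genes higher and 34.7% lower. Bak1 (Log2FC -0.96, edgeR adjusted P = 1.32e-09) and Bcl2l11 (0.66) were the 2 members with a difference over 0.3 in size. The Log2FC of the other 4 calls lay between -0.29 (Bad) and -0.13 (Bcl2l1), where the median of all genes was -0.10. These 4 were not called when library size alone scaled the counts, or when TMM took its reference library from the Input or IgG group. Under library size alone Bcl2, Mcl1, Bbc3 and Bmf were called higher, at 0.14 to 0.25, and the median of all genes was 0.013.

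To compare members with each other, levels were taken per kilobase of annotated exon. In the Input, Bax was highest at 180 ± 3.11 CPM per kb (SD, n = 3), followed by Mcl1 at 82.4 ± 0.434, Bak1 at 56.1 ± 0.394, Bcl2l1 at 40.8 ± 0.911, Bid at 34.6 ± 0.515, Bbc3 at 27.4 ± 0.199, Bcl2l11 at 22.55 ± 0.698, Bcl2 at 13.6 ± 0.466, Bad at 11.6 ± 0.679 and Bmf at 3.17 ± 0.234. No neighbours in that order overlapped between libraries. In IgG, Bax and Mcl1 stayed on top, and the ranges of neighbours overlapped from Bcl2l1 through Bcl2l11, Bid and Bak1 to Bbc3. In p-UPF1 the order was Bid at 250 ± 8.01 CPM per kb, Mcl1 at 221 ± 6.28, Bbc3 at 101.5 ± 1.28, Bax at 80.3 ± 4.47, Bcl2l1 at 44.5 ± 1.72, Bcl2 at 34.1 ± 1.33, Bcl2l11 at 33.1 ± 0.491, Bak1 at 30.8 ± 1.21, Bmf at 11.4 ± 0.166 and Bad at 10.1 ± 0.140. Only Bcl2 and Bcl2l11 overlapped there. The place of a gene depends on the length used. With the length of the RefSeq Select transcript, Mcl1 (334 ± 9.48 CPM per kb) stood above Bid (295 ± 9.42) in p-UPF1, and Bcl2l1 (114 ± 2.54) above Bak1 (56.7 ± 0.398) in the Input.

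The make-up of the family's RNA, as shares of the summed per-kilobase level, does not depend on the scaling between libraries. Bid took 7.29%, 7.34% and 7.32% of it in the Input libraries, 6.99%, 7.42% and 6.48% in IgG and 30.6%, 31.2% and 30.1% in p-UPF1. Bax took 38.0%, 38.4% and 38.1% in the Input, 39.1%, 35.9% and 35.3% in IgG and 10.5%, 9.16% and 9.83% in p-UPF1. Thus, per kilobase, the largest part of the pro-death RNA was Bax in the lysate and Bid in the p-UPF1 precipitate. Without division by length, Bcl2l11 (253 CPM) stood above Bax (166 CPM) in the lysate. The BH3-only class held 21.01% ± 0.2002 of the family in the Input, 24.97% ± 1.03 in IgG and 49.7% ± 0.440 in p-UPF1 (SD, n = 3), and the pore-forming class 50.0% ± 0.192, 43.5% ± 1.61 and 13.6% ± 0.639. The pro-survival class held 28.93% to 28.95% in the Input, 30.7% to 32.3% in IgG libraries and 35.8% to 37.3% after p-UPF1 precipitation, without overlap. All these shares depend on the gene lengths used, and class shares with other lengths or without division by length were not computed.

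**Figure D3:**
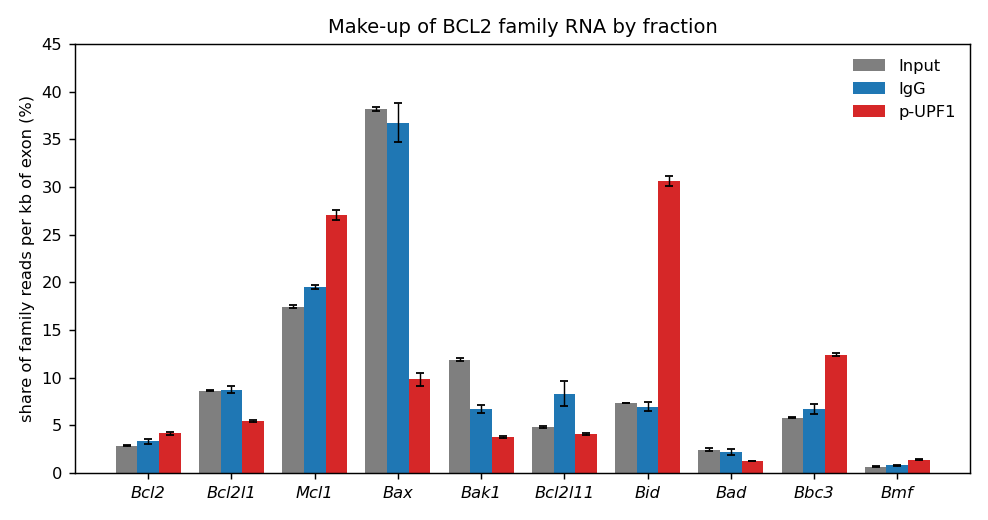
Share of each member in the summed per-kilobase level of the 10 genes (%), as mean and SD of 3 libraries, in Input (grey), IgG (blue) and p-UPF1 (red). Bax takes 38.2% in the Input and 9.83% in p-UPF1, Bid 7.32% and 30.6%, and Mcl1 17.4% and 27.1%.

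The balance of the sides was taken as the summed pro-death over the summed pro-survival level per kilobase. It was 2.45, 2.45 and 2.46 in the Input libraries, 2.26, 2.10 and 2.15 in IgG and 1.80, 1.70 and 1.68 in p-UPF1. The groups did not overlap, and the p-UPF1 libraries were lowest. Much of the p-UPF1 value came from 1 gene: with Bid left out the means were 2.20, 1.95 and 0.8915. With RefSeq Select lengths the means were 1.61, 1.54 and 1.38. The place of the Input among the groups rests on how members are summed. Without division by length the means were 0.879 in the Input, 0.969 in IgG and 0.843 in p-UPF1, and the ratio of the median levels of the sides was 0.672, 0.798 and 0.746, which put p-UPF1 above the Input. In each of these summaries the p-UPF1 mean was below the IgG mean, and only the place of the Input changed. All of them use only the members. Outside these, the survival genes Bcl2a1b and Bcl2a1d were lower in p-UPF1 (means 30.3 and 7.73 CPM) than in IgG (96.0 and 36.5 CPM). The BH3-only gene Pmaip1 was higher (368 against 197 CPM). The survival gene Bcl2l2, higher (80.1 against 50.0 CPM), and the scarce BH3-only gene Bik, lower, go the other way. No balance with such genes was computed, so the order of p-UPF1 and IgG was shown for the members only. No test was made of the balance.

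Ratios of single pairs differed in size and direction, and those of Bcl2l11 and Bid to Mcl1 lay on opposite sides. Per kilobase, Bax over Bcl2 was 13.3 ± 0.300 in the Input, 11.2 ± 1.64 in IgG and 2.36 ± 0.211 in p-UPF1 (SD, n = 3). Bcl2l11 over Mcl1 was 0.274 ± 0.00704, 0.425 ± 0.0647 and 0.150 ± 0.00331. Bid over Mcl1 was 0.420 ± 0.00476, 0.356 ± 0.0221 and 1.13 ± 0.0328. Bbc3 over Mcl1 was 0.333 ± 0.00101, 0.343 ± 0.0299 and 0.459 ± 0.0167. In each of these pairs the p-UPF1 libraries lay outside the range of the other 6, and the factor between p-UPF1 and IgG does not depend on gene length.

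Features of the transcripts that the choice of genes had not used were read from RefSeq Select transcripts. UPF1 is known to load on long 3′ UTRs, and NMD is known to act where an exon junction lies more than 50 bases after the stop codon. None of the 10 had a junction after the stop codon. The last junction lay 99 to 138 bases before the end of the stop codon in 9 members and 12 bases before it in Bid, whose last exon (chr6:120893119-120894292, minus strand) holds the end of the coding sequence and the whole 3′ UTR. The stop codon of Bid is shown with its surroundings because it is the one nearest to a junction, and the capitals mark it.
Bid, chr6:120894281-120894283, minus strand: aacgagatggacTGAggagcccgcacaagc
The annotated 3′ UTR was shortest in Bax (167 bases) and Bad (381), medium in Bbc3 (1100), Bak1 (1119), Bid (1162) and Bcl2l1 (1481), and longest in Mcl1 (2356), Bmf (3801), Bcl2l11 (4218) and Bcl2 (5088). Bax, with the shortest, had the lowest Log2FC over IgG, but Bcl2l11 (-0.11) and Bcl2 (1.27) differed with similar lengths, as did Bak1 (0.091) and Bid (3.07). Spearman's rho between 3′ UTR length and Log2FC over IgG was 0.22 across the 10 genes and 0.36 across 11896 genes with a RefSeq coding transcript, and for the Log2FC over input it was 0.38 across the 10 and 0.37 across all. These correlations are across genes, which share the same libraries and are not independent replicates. In all genes, the median Log2FC over IgG was -0.63 for 3′ UTRs under 589 bases, 0.28 up to 1625 bases and 0.42 above, and 1.79%, 7.18% and 10.1% met the criterion.

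Upstream start codons, which can also expose an RNA to NMD, numbered 11 in the 5′ UTR of Bcl2, 4 in Bcl2l1, 2 in Bak1 and Bbc3, 1 in Bax and Bcl2l11 and 0 in Mcl1, Bid, Bad and Bmf. Bid, with none, had the largest Log2FC. In all genes, the median Log2FC over IgG was 0.17 with at least 1 upstream start codon and -0.16 with none, and 6.04% and 6.61% met the criterion. GENCODE M21 marks 1 of 5 Bid transcripts and 2 of 4 Bak1 transcripts as NMD targets and none of the other 8 genes, and counts per gene do not tell transcripts apart. In RefSeq, 1 of 9 coding Bcl2l1 transcripts had a junction over 50 bases after its stop codon. Genes on the opposite strand overlap Bid (Gm17812), Bak1 (Ggnbp1), Bad (Gpr137, Gm19053) and Bcl2l1 (Cox4i2, Gm32211). The sources name a directional kit, and the RNA-seq methods name unstranded alignment. If strand was not used in counting, reads of such partners cannot be told apart. Ggnbp1 had at most 33 counts and Cox4i2 at most 7, Gpr137 had up to 416, a number like that of Bad. Gm17812, Gm19053 and Gm32211 were not in the count table, so no level of theirs can be given. Bcl2 and Bcl2l11 overlap genes of the same strand.

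**Figure D4:**
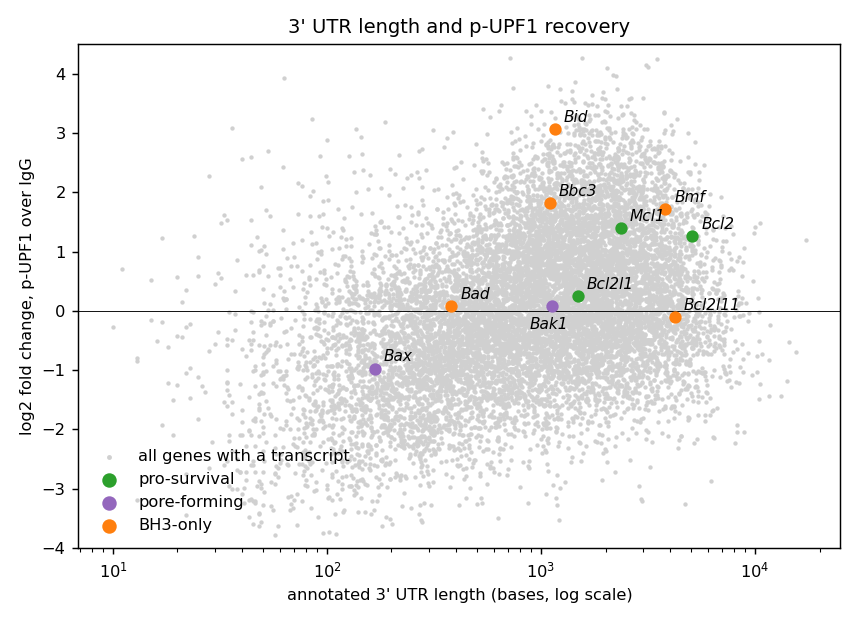
Log2FC of p-UPF1 over IgG against the annotated 3′ UTR length (bases, log axis) for 11896 genes with a RefSeq coding transcript (grey; 32 lie outside the axes) and for the members by class (coloured). Bax, with 167 bases, is the lowest member, while Bid and Bak1, with 1162 and 1119 bases, are at 3.07 and 0.091.

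Other genes of the family were taken from a list of 16, of which 13 were tested. Over IgG, 4 were higher in p-UPF1 and 6 lower, and over input 5 were higher and 7 lower, beside 40.4% and 42.2% of all genes over IgG and 40.8% and 42.6% over input. The median Log2FC of the 13 was -0.23 over IgG and -0.79 over input. Bcl2l13, which encodes a mitochondrial protein with a role in mitophagy, met the criterion, at 126 ± 2.48 CPM in the Input, 111 ± 9.40 in IgG and 516 ± 3.95 in p-UPF1 (SD, n = 3). Its Log2FC was 2.21 over IgG (edgeR adjusted P = 5.48e-16) and 2.04 over input (adjusted P = 9.72e-16). It met the criterion in 19 of 21 alternative settings and missed it under library size alone and upper-quartile factors (at the lowest, 1.97 over input). It lies 277 bases from Bid on chromosome 6, on the other strand. The 2 annotated genes do not overlap, but whether reads run past an annotated end into the other gene was not tested. Pmaip1, the gene of the BH3-only protein NOXA that binds MCL1, stood at 142 ± 2.19 CPM in the Input, 197 ± 14.7 in IgG and 368 ± 14.1 in p-UPF1, a Log2FC of 0.90 over IgG (adjusted P = 4.09e-11). Bik and Hrk, also BH3-only genes, were scarce: Bik, with at most 23 counts in any library, was lower over IgG (Log2FC -2.61, adjusted P = 0.00233), and Hrk, also with at most 23, had a Log2FC of 0.22 (adjusted P = 0.560). Bcl2l2, the gene of the survival protein BCL-W, was higher by 0.68 (adjusted P = 7.57e-09).

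Of the 4 survival genes of the A1 group, 3 were lower in p-UPF1 than in IgG (Bcl2a1b, Bcl2a1c, Bcl2a1d), and Bcl2a1a had a Log2FC of -0.33 (adjusted P = 0.477) that did not pass. Bcl2a1b stood at 126 ± 5.97 CPM in the Input, 96.0 ± 2.42 in IgG and 30.3 ± 3.79 in p-UPF1, a Log2FC of -1.67 over IgG (edgeR adjusted P = 1.00e-12). Bcl2a1d stood at 52.8 ± 1.45, 36.5 ± 3.48 and 7.73 ± 0.283 CPM, a Log2FC of -2.24 (adjusted P = 1.55e-13). The A1 genes are near-identical copies, so how reads were divided among them is uncertain. With them the statement that pro-survival RNAs were higher in p-UPF1 holds for Bcl2, Bcl2l1, Mcl1 and Bcl2l2 and not for the A1 genes. The mitophagy receptors Bnip3 and Bnip3l were lower over IgG, with a Log2FC of -0.98 and -0.23. Bcl2l10, Bcl2l15 and Bok had too few counts to be tested.

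Genes that act on the members were taken from a list of 15, all tested. Over IgG 6 were higher and 9 lower, over input 5 were higher and 10 lower, where 40.4% and 42.2% of all genes were called over IgG and 40.8% and 42.6% over input. The median Log2FC was -0.22 over IgG and -0.31 over input. Transcription factors that induce BH3-only genes stood on both sides. Ddit3 (CHOP) met the criterion, at 134 ± 5.02 CPM in the Input, 129 ± 11.6 in IgG and 674 ± 132 in p-UPF1, a Log2FC of 2.39 over IgG (edgeR adjusted P = 2.48e-12). Foxo3 had a Log2FC of 1.65 over IgG (adjusted P = 2.19e-14). Trp53 (Log2FC -1.85, adjusted P = 4.18e-16) and Myc (-1.62, adjusted P = 7.55e-16) were lower. The dynein light chains that tether BH3-only proteins to the cytoskeleton split as well: Dynll1, the partner of BIM, had a Log2FC of -1.73 (adjusted P = 3.49e-11) and Dynll2, the partner of BMF, of 0.90 (adjusted P = 3.75e-12). Of the ubiquitin pathway genes that act on MCL1, Fbxw7 was higher (0.46, adjusted P = 1.48e-08), and Huwe1 (-0.30, adjusted P = 0.00102) and Usp9x (-0.96, adjusted P = 2.04e-09) were lower.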

How the data were processed

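The values are raw counts of reads per gene that the authors deposited, 1 column per library, keyed by NCBI Gene number. The submitters' processing notes name cutadapt, HISAT2, featureCounts and mm10, with no versions. Column totals differed and no scaling was visible. The counts hold no molecular identifiers, so counting error understates the true error. Columns carry letters and the labels carry replicate numbers, so a column's group is known and its replicate number is not.

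Genes were kept with edgeR's filterByExpr (minimum count 10, minimum total 15), which left 13129 of 27179. Counts were scaled by TMM factors. A model of 3 groups with no covariate was fitted to all 9 libraries (6 residual degrees of freedom) and tested with edgeR 4.0.16 in R 4.3.3 (glmQLFit and glmQLFTest, two-sided, Benjamini-Hochberg over all genes tested, prior count 0.125). CPM in the text are TMM-normalised. Lengths and sequences came from RefSeq on GRCm38.p6, and NMD labels from GENCODE M21. The fit was also run on counts simulated from the Input levels, with few genes changed, only in p-UPF1 and equally up and down. Most genes differ in the data, so that run does not check the scaling used here. Alternatives covered scaling, filters, DESeq2 1.42.0, limma-voom (limma 3.58.1), the prior count, a block on the column letter and leaving out each library. The members, the lists of further genes and the markers were chosen with earlier results of these data known. Named genes were the members, genes of those lists and the 3 patterns nearest to the member with the largest Log2FC over IgG. Genes that overlap a member on the opposite strand were named outside this rule, from the annotation. An item of the marker lists is not reported here.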

Additional observations from a re-analysis of the deposited data

How the results depend on the processing

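The labels' replicate numbers could not be used as a block, since the columns carry letters. With the shared letter as a replicate block, an alternative chosen after seeing the data, the counts of members higher and lower were 6 and 1 over IgG, 7 and 2 over input and 1 and 5 for IgG over input, 1 met the criterion, and no call of a member changed. Deviations of libraries with the same letter from their group means correlated at -0.0051 to 0.0542 (9 pairs), and of those with different letters at -0.056 to 0.0222 (18 pairs). Of 210 member values per comparison (10 members, 21 alternatives), direction and call stayed in 198 over IgG, in 199 over input and in 154 for IgG over input. Under library size alone, upper-quartile factors and TMM with an input reference, 2 members were lower in p-UPF1 than in IgG in place of 1, the second being Bcl2l11, and leaving out 1 library gave 1 to 2 (2 without IgG library A). The count meeting the criterion was 2 with an IgG reference for TMM or with no low-count filter. For IgG over input, the count higher was 5 under library size alone, upper-quartile factors, TMM with an input or an IgG reference and no filter, 4 with only those groups fitted, and 1 to 2 without 1 library (2 without IgG library A or B). The count lower was 1 under library size alone, either TMM reference, no filter and only those groups fitted, 3 under upper-quartile factors and DESeq2's size factors or test, and 3 to 5 without 1 library (3 without Input library C).

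Signs turned for 3 small differences of p-UPF1 over IgG. Bak1 was -0.071 under library size alone and -0.045 under upper-quartile factors, and it was called higher with no low-count filter (0.14, adjusted P = 0.0402). Bad was -0.082, -0.057 and -0.0048 under library size alone, upper-quartile factors and TMM with an input reference, and -0.026 to 0.19 without 1 library. Bcl2l11 was -0.23 to 0.00335 without 1 library. The balance of the sides was 0.879, 0.969 and 0.843 (Input, IgG, p-UPF1) without division by length, 0.672, 0.798 and 0.746 as a ratio of medians and 1.61, 1.54 and 1.38 with RefSeq Select lengths, an alternative chosen after seeing the data. The cause of these shifts was not tested. The median of all genes for p-UPF1 over IgG was -0.033 and became -0.19 under library size alone. The largest SE among the members was that of Bad (0.104 over IgG), on 235 to 368 counts per precipitate library.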
